A study of Xenopus laevis with 15 samples.

Results

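The gene rdh10 encodes retinol dehydrogenase 10, and it was represented by 1 row, Xelaev18003629m.g, of the 45099 gene models in the deposited expression table. It was found by its exact symbol. RNA of whole embryos of the African clawed frog, Xenopus laevis, had been sequenced in 3 groups, each of 5 libraries. The vehicle group was kept in 0.1% ethanol (EtOH), and the other groups were kept in NRX204647, a retinoic acid receptor (RAR) agonist known by its code name, at 10 nM or at 1 µM. All embryos came from in vitro fertilization and were exposed from stage 6 (6 to 7 in the protocol) to stage 18, and the labels name no genetic change. The labels describe 10 nM as selective for RARgamma and 1 µM as active on RARalpha, RARbeta and RARgamma. Each library came from 5 embryos. The protocol describes dishes of 25 embryos, each divided into 5 aliquots at harvest that were called replicates, and does not say whether the 5 libraries of a group came from 1 dish. If they did, treatment and dish cannot be told apart. The p-values measure the spread between these aliquots, which may be technical.

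Retinoic acid is made from vitamin A in a pair of oxidation steps. Retinol dehydrogenases such as RDH10 turn retinol into retinaldehyde, a reversible reaction that the reductase DHRS3 runs in the opposite direction, and retinaldehyde dehydrogenases such as ALDH1A2 then form retinoic acid, which CYP26 enzymes break down. Retinoic acid binds RAR proteins paired with retinoid X receptors (RXR) on DNA and in vertebrate embryos takes part in patterning the hindbrain, the trunk mesoderm and the body axis. In Xenopus, rdh10 has been described as a gene whose transcripts decline when retinoic acid is supplied.

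Transcripts of rdh10 fell stepwise with dose. The 5 vehicle libraries, replicates 1 to 5, held 26.6, 25.8, 18.8, 23.1 and 19.96 FPKM (fragments per kilobase of gene model and per unit of mapped depth). The 10 nM libraries held 17.4, 14.6, 12.5, 12.1 and 13.3 FPKM. The 1 µM libraries held 5.20, 5.22, 5.94, 5.08 and 5.34 FPKM. No library of a group overlapped any library of another group. The gap between the lowest vehicle library and the highest 10 nM library was 1.40 FPKM, and the gap between the lowest 10 nM library and the highest 1 µM library was 6.17 FPKM. The group means were 22.9 ± 3.48 FPKM with vehicle, 14.0 ± 2.13 FPKM at 10 nM and 5.36 ± 0.336 FPKM at 1 µM (SD, n = 5 each). The level at 10 nM was thus 61.1% of the vehicle mean and the level at 1 µM was 23.4% of it. In whole embryos, fewer cells that express rdh10 and less rdh10 RNA per cell cannot be told apart.

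**Figure D1:**
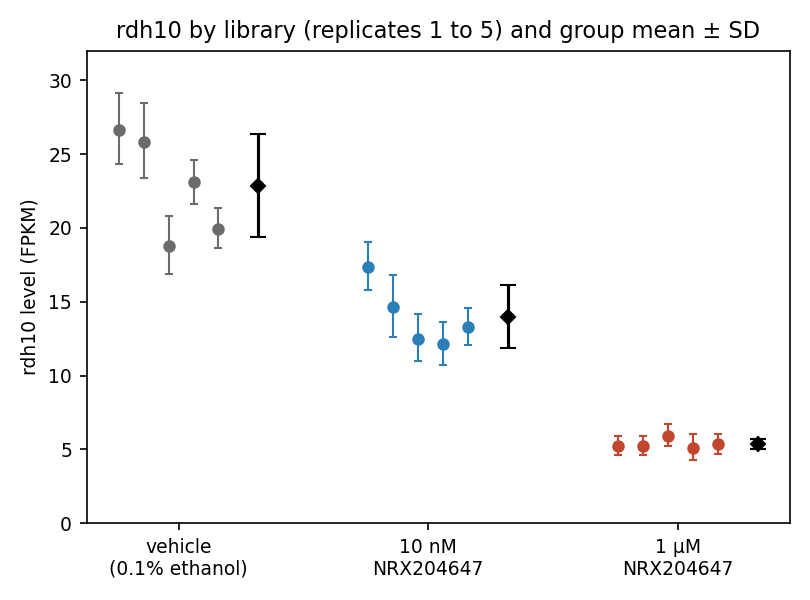
Level of rdh10 in FPKM (y axis, from 0) in each of the 15 libraries, grouped by treatment, with replicates 1 to 5 from left to right. Coloured bars are exact Poisson 95% intervals for the recovered reads and cover counting error only, and black diamonds with bars are the group mean ± SD of 5 libraries. The 1 µM libraries lie between 5.08 and 5.94 FPKM, below every 10 nM library, and the 10 nM libraries lie between 12.1 and 17.4 FPKM, below every vehicle library.

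The reads behind these levels were recovered from the steps of the FPKM values. In rdh10 all 15 values came out as whole reads to within 0.00184 reads. The smallest whole numbers that matched were taken, so a factor common to all 15 could not be seen. The vehicle libraries held 355 to 940 rdh10 reads, the 10 nM libraries 192 to 450 and the 1 µM libraries 138 to 265. Sequencing depth ran the other way between vehicle and 1 µM. Relative to the deepest library it was 0.312 to 0.833 with vehicle, 0.259 to 0.646 at 10 nM and 0.535 to 1 at 1 µM. The 1 µM libraries were therefore deeper on average than the vehicle libraries and still held fewer rdh10 reads in all, 1141 against 3029. The recovered reads of tested gene models summed to 2507839 to 10287503 per library. Gene models whose reads were not recovered are missing from these sums, which do not follow depth exactly. The largest sum was that of 1 µM replicate 1, at a relative depth of 0.989, and the deepest library, 1 µM replicate 2, had 9815171.

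**Figure D2:**
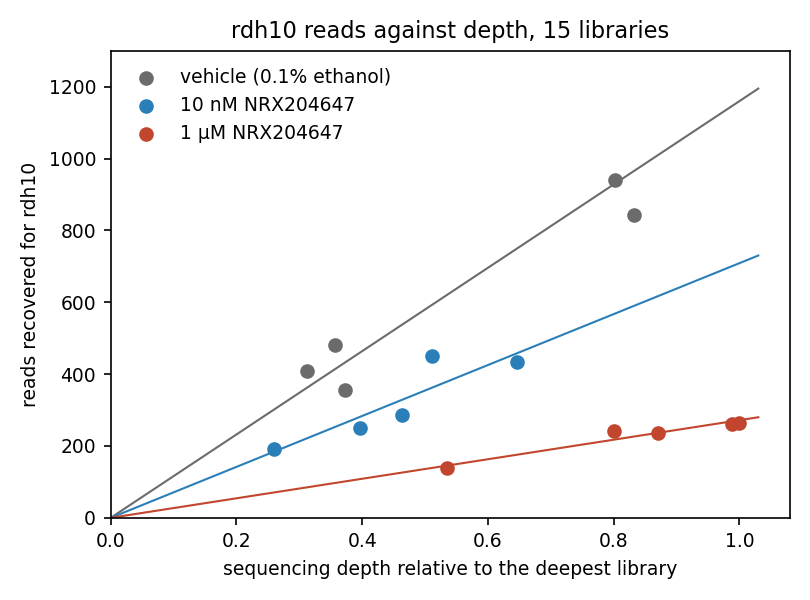
Reads recovered for rdh10 (y axis) against the sequencing depth of each library relative to the deepest (x axis), with 5 libraries per group. Each line runs through the origin at the group's mean number of reads per unit of depth. The deepest library, 1 µM replicate 2, held 265 rdh10 reads, whereas vehicle replicate 1, at a relative depth of 0.357, held 482.

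The spread between libraries was larger than counting error in the vehicle and 10 nM groups and close to it at 1 µM. The coefficient of variation of rdh10 was 15.2% with vehicle and 15.2% at 10 nM, where counting alone gives 4.38% and 5.87%. At 1 µM it was 6.27%, and counting alone gives 6.82%. The most abundant gene model took 23.6% to 45.5% of the summed FPKM of a vehicle library, 17.6% to 32.9% at 10 nM and 14.5% to 26.2% at 1 µM. The vehicle library in which it took the most, replicate 3, was also the one with the lowest rdh10 value, and the part of that gene model in the spread was not tested beyond the scalings given here. With median-of-ratios scaling, which divides each library by its typical ratio to the others, the SD of the vehicle group became 1.87 around a mean of 23.1, that of 10 nM became 1.35 around 14.1 and that of 1 µM became 0.266 around 5.04. The 3 groups did not overlap on that scale either, but the share of all gene models that separate on it was not computed.

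The comparison of 10 nM with vehicle asks whether rdh10 responds at the RARgamma-selective dose. The log2 fold change of (FPKM + 1) was -0.67 ± 0.11 (SE, n = 5 against 5, 95% interval -0.91 to -0.43, limma adjusted p = 0.000949). Of the 13192 gene models tested, which were those averaging 1 FPKM or more, 23.3% were called at an adjusted p under 0.05, with 10.3% lower at 10 nM and 13% higher. A gene model with all 10 nM libraries below all vehicle libraries made up 5.92% of those tested. By log2 fold change rdh10 ranked 316th from the lowest of the 13192 and 9th of the 310 with a symbol that is not a placeholder. The call did not hold without the shallow libraries, a setting in which fewer libraries and their depth cannot be told apart. Without the 5 libraries below 0.4 of the deepest library's depth, which left 2 vehicle and 3 10 nM libraries, the log2 fold change was -0.57 ± 0.15 and missed the threshold (limma adjusted p = 0.0531).

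The comparison of 1 µM with vehicle addresses the dose that activates all of the receptor subtypes. Here rdh10 was lower by -1.90 ± 0.11 on the log2 scale (SE, 95% interval -2.14 to -1.66, limma adjusted p = 3.67e-09), and the ratio of the mean FPKM values was 4.27-fold. Of the tested gene models 45.6% were called at 1 µM, 16.6% lower and 28.9% higher, and in 11.4% every 1 µM library lay below every vehicle library. By log2 fold change rdh10 ranked 45th from the lowest of the 13192 gene models and lowest of the 310 named ones. Among the 702 gene models with a vehicle level within 1.5-fold of that of rdh10, it ranked 8th at 1 µM and 31st at 10 nM, and their median log2 fold changes were 0.06 and 0.05.

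Between the doses rdh10 was lower at 1 µM than at 10 nM by -1.23 ± 0.11 (SE, 95% interval -1.46 to -0.99, limma adjusted p = 1.01e-06), against a background of 23.8% of gene models called, 7.72% lower and 16.1% higher. Complete separation in this direction was seen in 6.06% of the tested gene models. It ranked 72nd from the lowest of all and again lowest of the named gene models. An exact permutation test of the difference in mean FPKM gave p = 0.00794 for each of the 3 pairs of groups, two-sided, which is the smallest value that 5 against 5 allows, and 0.00794 after Benjamini-Hochberg adjustment over the 3.

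**Figure D3:**
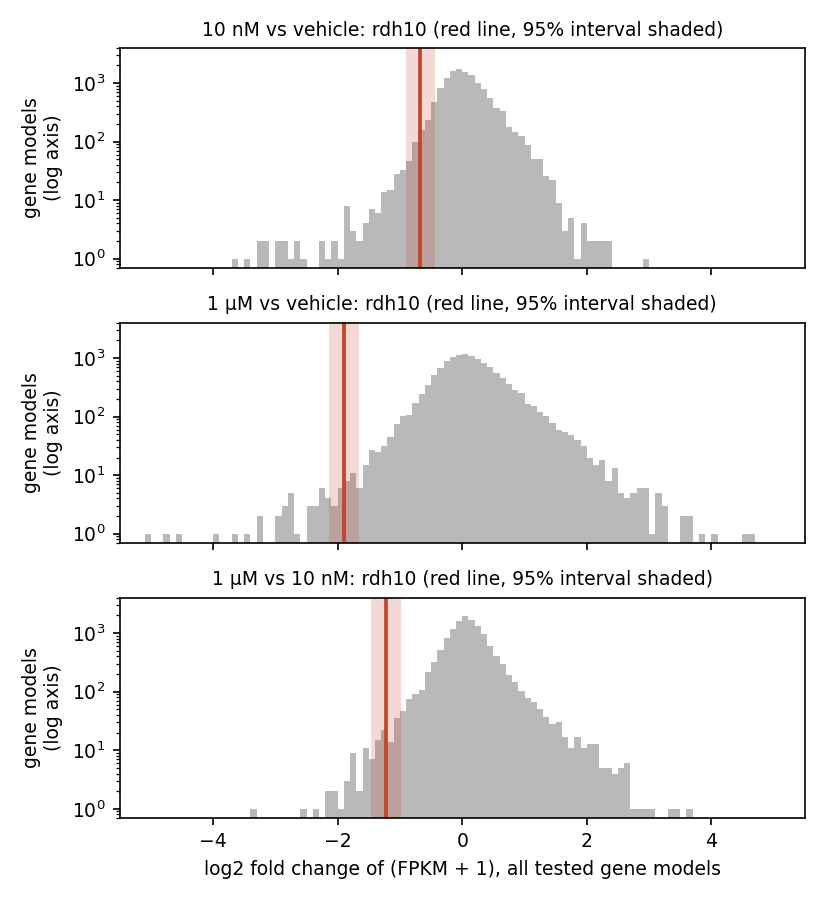
Number of tested gene models (y axis, log scale) by log2 fold change of (FPKM + 1) in bins of 0.1 (x axis) for the 3 comparisons. The red line marks rdh10 and the shading its 95% interval. It lies at -0.67 for 10 nM against vehicle, -1.90 for 1 µM against vehicle and -1.23 for 1 µM against 10 nM, to the left of most of the 13192 gene models in each.

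The sizes of the steps depended on the scale. From vehicle to 10 nM the mean FPKM decreased by 8.89, from 10 nM to 1 µM it decreased by 8.62, and 50.8% of the whole fall was reached at 10 nM. On the log2 scale 35.4% of it was reached there. The second step minus the first was -0.56 ± 0.19 on the log2 scale (SE, 95% interval -0.97 to -0.14). It did not pass adjustment over all gene models (limma adjusted p = 0.0759, unadjusted p = 0.0118), and 12% of gene models were called by that contrast, 4.71% lower and 7.28% higher. The difference passed with median-of-ratios scaling, where it was -0.63 ± 0.13 (limma adjusted p = 0.00609), with quantile normalization, where it was -0.53 ± 0.14 (adjusted p = 0.0219), and with a common total that left out the most abundant gene model, where it was -0.46 ± 0.14 (adjusted p = 0.0370). The concentrations of the doses differ 100-fold.

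The position of rdh10 within each library gives a reading that does not depend on the scaling between libraries. With vehicle, 93.8% to 94.8% of the tested gene models lay below rdh10 in the same library. At 10 nM the share was 88.4% to 91.2%, and at 1 µM it was 67.7% to 71.8%. Among the 310 named gene models rdh10 held places 10 to 15 from the highest with vehicle, 26 to 30 at 10 nM and 78 to 88 at 1 µM. These ranges do not overlap between groups either, but the share of gene models whose places separate likewise was not computed. By FPKM, complete separation in this direction was seen in 5.92% of tested gene models at 10 nM. It was seen in 11.4% at 1 µM against vehicle and in 6.06% between the doses. FPKM is a level per length, so it can be ranked between genes. The gene models ranked were chosen by their mean on the deposited scale. A place also falls when other gene models rise past rdh10. At 1 µM against vehicle 28.9% of them were called higher and 16.6% lower, and their part in the places was not tested.

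Other genes of the retinoid pathway were mostly not among the named rows. Of the 131 symbols in 8 lists of retinoid genes and related dehydrogenases, 6 were found in the table and 5 of those were high enough to be tested. The list of enzymes that make retinoic acid from retinol or carotene held rdh10 alone of 21 symbols, lower in all 3 comparisons. No row carried a symbol from the lists of reverse and storage enzymes, degrading enzymes, retinoid-binding proteins, retinoid receptors or receptor cofactors. Only 702 of the 45099 gene models carried a symbol that is not a placeholder, so rows without one may hold these genes. Of the list of early retinoic acid targets, 2 of 23 were tested. The orphan nuclear receptor gene nr2f6 was higher at 1 µM, at 4.14 ± 0.302 FPKM against 2.45 ± 0.584 with vehicle (SD, n = 5 each, log2 fold change 0.59 ± 0.11, limma adjusted p = 0.000618). It stood at 2.54 ± 0.463 FPKM at 10 nM, where the log2 fold change of 0.04 ± 0.11 did not pass. The transglutaminase gene tgm2 had levels of 1.14 ± 0.190, 1.075 ± 0.176 and 0.843 ± 0.147 FPKM with vehicle, at 10 nM and at 1 µM and passed in none of the 3 comparisons (limma adjusted p from 0.0831 to 0.788). Its difference at 1 µM, -0.21 ± 0.10, passed with each of the 3 other scalings, at -0.35 to -0.26, with library weights, with voom, and without vehicle replicate 3 or 1 µM replicate 4. Its difference between the doses, -0.17, passed with quantile normalization (-0.30, limma adjusted p = 0.0293). The mean of tgm2 over all libraries was 1.02 FPKM, near the 1 FPKM needed for testing, and its 1 µM mean lay below that. It was thus tested through its vehicle and 10 nM libraries, so that a lower level at 1 µM was partly set by the filter.

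RDH10 belongs to the short-chain dehydrogenases, and 3 of 42 symbols of the wider family were found. The gene hsdl2, for a peroxisomal hydroxysteroid dehydrogenase-like protein, had 4.39 ± 0.767 FPKM with vehicle, 5.68 ± 1.82 at 10 nM and 7.37 ± 2.33 at 1 µM. It rose at 1 µM by 0.59 ± 0.21 (limma adjusted p = 0.0336). That rise was lost without any 1 of vehicle replicates 1 and 5 and 1 µM replicates 1, 2, 3 and 5 (0.49 to 0.58, limma adjusted p from 0.0575 to 0.0901), with each of the 3 other scalings (0.37 to 0.49, adjusted p from 0.0685 to 0.132) with no filter on low values and without the shallow libraries (0.57, adjusted p = 0.151), and 1 µM replicate 4, at 3.51 FPKM, lay below the vehicle range. Without that library the difference of hsdl2 between the doses, 0.30, passed as well (0.51, limma adjusted p = 0.0373). The mitochondrial dehydrogenase gene hsd17b10 had 1.05 ± 0.390, 1.86 ± 0.620 and 1.76 ± 0.833 FPKM in the same order, on 4 to 28 reads per library, and passed in no comparison (limma adjusted p from 0.101 to 0.853), although its 10 nM difference did without 10 nM replicate 3 (0.60, adjusted p = 0.0456). The gene hsd17b11, for a lipid droplet dehydrogenase, was too low to be tested, at 0 to 0.0911 FPKM with vehicle, 0.0754 to 0.329 at 10 nM and 0.159 to 0.341 at 1 µM. Neither of the 2 tested genes of this family besides rdh10 was called lower at either dose. Over all tested gene models 10.3% were called lower at 10 nM and 16.6% at 1 µM. With shares this small, 2 genes do not set rdh10 apart from its family.

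The named genes whose pattern was most like that of rdh10 were mycl, zfp36l1, zcchc24, rbbp4 and chrnd. Likeness was measured as the root-mean-square difference over the 15 libraries between log2(FPKM + 1) values taken relative to each gene's own vehicle mean. It was 0.281 for mycl, 0.441 for zfp36l1, 0.544 for zcchc24, and 0.614 for both rbbp4 and chrnd. The median over all tested gene models was 1.24. A gene with a constant level would score 1.17. The doses share the vehicle libraries, which enter every one of these values, and the order is a description with no test. Since these genes and the mirror genes given after them were picked by the values compared, their log2 fold changes are given as a description too.

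The Myc-family transcription factor gene mycl had vehicle values of 11.04, 8.85, 10.97, 10.05 and 8.59 FPKM. At 10 nM it had 6.23, 4.67, 4.68, 4.89 and 5.86 FPKM, and at 1 µM 3.06, 2.04, 3.31, 1.56 and 3.13 FPKM. Its groups did not overlap, which is a description too, since mycl was picked by these values. Over all tested gene models such separation was seen in 5.92% at 10 nM, 11.4% at 1 µM and 6.06% between the doses. The log2 fold changes of mycl were -0.80 at 10 nM and -1.61 at 1 µM against vehicle. For zfp36l1, whose protein promotes the decay of AU-rich mRNAs, the group means were 11.4 ± 1.09, 7.62 ± 1.02 and 4.35 ± 0.707 FPKM, with log2 fold changes of -0.53 and -1.22. The zinc finger gene zcchc24, at 11.4 ± 2.56, 5.60 ± 2.35 and 3.73 ± 0.744 FPKM, rested on 4 to 44 reads per library. Its log2 difference between the doses was -0.42 ± 0.21. The histone-binding gene rbbp4 had log2 fold changes of -0.45 at 10 nM and -0.93 at 1 µM. For chrnd, a subunit of the muscle acetylcholine receptor, they were -0.14 ± 0.13 at 10 nM and -1.03 ± 0.13 at 1 µM.

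Of the other tested gene models, 8 matched rdh10 to within 0.25, and none of these was named. Only 310 of the 13192 tested gene models carried a symbol that is not a placeholder. The absence of a named match among so few is therefore no difference between named and unnamed gene models. The closest was Xelaev18020871m.g, at a difference of 0.149, with 20.6 ± 2.91 FPKM with vehicle, 13.0 ± 0.868 at 10 nM and 5.26 ± 0.560 at 1 µM (SD, n = 5 each). Unlike those of rdh10, the values of Xelaev18020871m.g did not come out as whole reads, and the reason was not tested. Its vehicle libraries held 23.4, 23.2, 16.3, 19.9 and 20.4 FPKM, with the lowest value in replicate 3, as for rdh10. The next was Xelaev18005626m.g, at 0.210, with 11.4 ± 1.58, 7.36 ± 0.765 and 3.13 ± 0.438 FPKM. Both were picked by their values in all 15 libraries, the vehicle ones included. Their match to rdh10, in vehicle replicate 3 as elsewhere, is therefore a description with no test. The sources used here give neither of them a name.

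The named genes closest to the mirror image of rdh10 were azin2, dnm1 and sema3f-like.1, at root-mean-square differences of 0.287, 0.308 and 0.318. The gene azin2 encodes a regulator of polyamine synthesis and stood at 16.3 ± 2.46, 25.2 ± 7.06 and 65.9 ± 10.97 FPKM. The gene dnm1, for a membrane-severing dynamin, stood at 0.695 ± 0.201, 1.16 ± 0.152 and 4.22 ± 0.289 FPKM. The semaphorin-related gene sema3f-like.1 stood at 0.560 ± 0.193, 1.10 ± 0.165 and 3.52 ± 0.804 FPKM. Their log2 fold changes were 0.57, 0.36 and 0.44 at 10 nM, and 1.94, 1.63 and 1.53 at 1 µM. Both dnm1 and sema3f-like.1 reached the mean of 1 FPKM needed for testing through their 1 µM libraries, so that they had to be higher there.

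**Figure D4:**
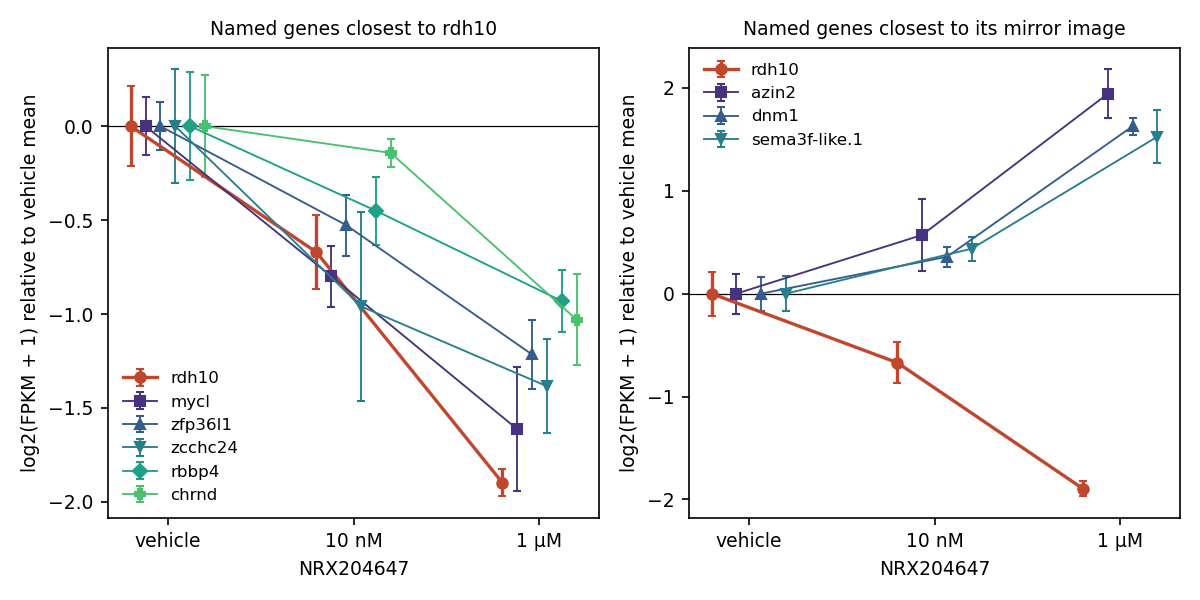
Mean ± SD over 5 libraries of log2(FPKM + 1) relative to each gene's own vehicle mean (y axis) by treatment (x axis), for rdh10 in red with the 5 named genes closest to it (left) and the 3 closest to its mirror image (right). At 1 µM rdh10 lies at -1.90 and mycl at -1.61 on the left, and azin2 lies at 1.94 on the right.

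Markers of tissues whose share of the embryo could move with rdh10 were also mostly absent from the named rows, with 7 of 85 symbols found and 6 tested. None of the symbols listed for paraxial mesoderm, endoderm, or pronephros and lateral plate was found. The 3 somite muscle genes found, chrnd, chrng and ldb3-like.1, summed to 14.0 to 21.5 FPKM with vehicle, 15.5 to 19.2 at 10 nM and 7.01 to 12.1 at 1 µM. None of the 3 was called at 10 nM, and chrnd and ldb3-like.1 were lower at 1 µM. With the common total chrng passed as lower at 1 µM as well (-0.38, limma adjusted p = 0.0204). All 3 were called lower in the comparison of the doses, chrng with a limma adjusted p of 0.0172 that became 0.0933 without the shallow libraries. Over all tested gene models, 10.3% were called lower at 10 nM, 16.6% at 1 µM and 7.72% between the doses. The neural plate gene sox2 had 2.06 to 4.64, 0 to 1.86 and 0.743 to 2.40 FPKM and was lower at both doses, on 0 to 31 reads per library. Its 10 nM call, at -1.24, was lost without the shallow libraries (-1.25, limma adjusted p = 0.0882). Its 1 µM call, at -0.70 (limma adjusted p = 0.0436), was lost without any 1 of vehicle replicates 1, 2, 3 and 5, 10 nM replicate 2 and 1 µM replicates 1, 2, 3 and 5 (limma adjusted p from 0.0509 to 0.116), without the shallow libraries (-0.50, adjusted p = 0.301), and likewise with a pseudocount of 0.1, no filter, library weights or voom. The neural crest gene sox9 had 2.09 to 3.11, 1.25 to 2.87 and 5.09 to 6.74 FPKM and was higher at 1 µM. At 10 nM its -0.28 did not pass, but with the common total it passed as lower (-0.41, limma adjusted p = 0.0270). The epidermal gene grhl3 had 17.3 to 20.8, 22.4 to 24.9 and 13.3 to 16.3 FPKM, and was higher at 10 nM and lower at 1 µM. Its 10 nM call was lost under the common total, under quantile normalization and without the shallow libraries (limma adjusted p from 0.0818 to 0.162). The notochord-list gene nog, too low to be tested, had 0.241 to 0.843, 0.233 to 1.62 and 0.719 to 2.00 FPKM. The part of these tissues in the rdh10 result was not tested.

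Xenopus laevis carries paired gene copies, named .L and .S, and the RefSeq gene table of Xenopus_laevis_v10.1 lists 2 genes for rdh10, rdh10.L and rdh10.S. The deposited identifiers matched none in that table (0), so the row cannot be assigned to either copy, and reads shared by near-identical copies could have been split between their gene models. The library preparation kept no strand, so reads of an overlapping antisense transcript would be counted too. Of the genes within 10 protein-coding genes of either copy in that reference, 7 have their symbol in the deposited table and 2 were tested, a comparison added after the data had been seen. The rows of the 2 tested genes were matched by symbol without its copy suffix and cannot be assigned to a copy either. In that reference tram1, for a protein of the endoplasmic reticulum translocon, stands 10 genes before rdh10.S. The deposited tram1 row had 22.2 ± 1.15, 18.3 ± 3.57 and 22.3 ± 2.30 FPKM. It was not called on the deposited scale. At 10 nM its -0.29 ± 0.12 passed under quantile normalization (-0.42), the common total (-0.45) and without 10 nM replicate 5 (-0.38), without which its difference between the doses, 0.29, passed as well (0.38). Its log2 fold change at 1 µM was 0.0012 ± 0.12, and it turned to -0.11 under median-of-ratios scaling, -0.25 under quantile normalization and -0.24 under the common total. In the same reference eya1, for a transcriptional coactivator of sensory placodes, stands 8 genes before rdh10.S. The deposited eya1 row had 2.25 ± 0.218, 2.03 ± 0.268 and 1.76 ± 0.277 FPKM. It was lower at 1 µM by -0.24 ± 0.09 (limma adjusted p = 0.0377). That call was lost without any 1 of vehicle replicates 1, 2, 4 and 5 and 1 µM replicates 1, 4 and 5 (limma adjusted p from 0.0556 to 0.0938), with no filter on low values and without the shallow libraries. Its 10 nM difference, -0.11, passed with the common total (-0.23, limma adjusted p = 0.0454).

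The choice of scale moved the balance of calls over all gene models. The share of calls at 1 µM against vehicle that were higher was 63.5% on the deposited scale. It was 51.5% under median-of-ratios scaling, 44.7% under quantile normalization and 39.0% under the common total. For 10 nM against vehicle the shares were 55.8%, 52.0%, 44.8% and 27.7%, and for 1 µM against 10 nM 67.5%, 51.8%, 47.6% and 55.1%. The median log2 fold change of all tested gene models at 1 µM was 0.09 on the deposited scale and -0.09 with the common total, and at 10 nM it was 0.01 and -0.11. Relative to these medians the change of rdh10 was -1.99 and -2.04 at 1 µM, and -0.68 and -0.72 at 10 nM.

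**Figure D5:**
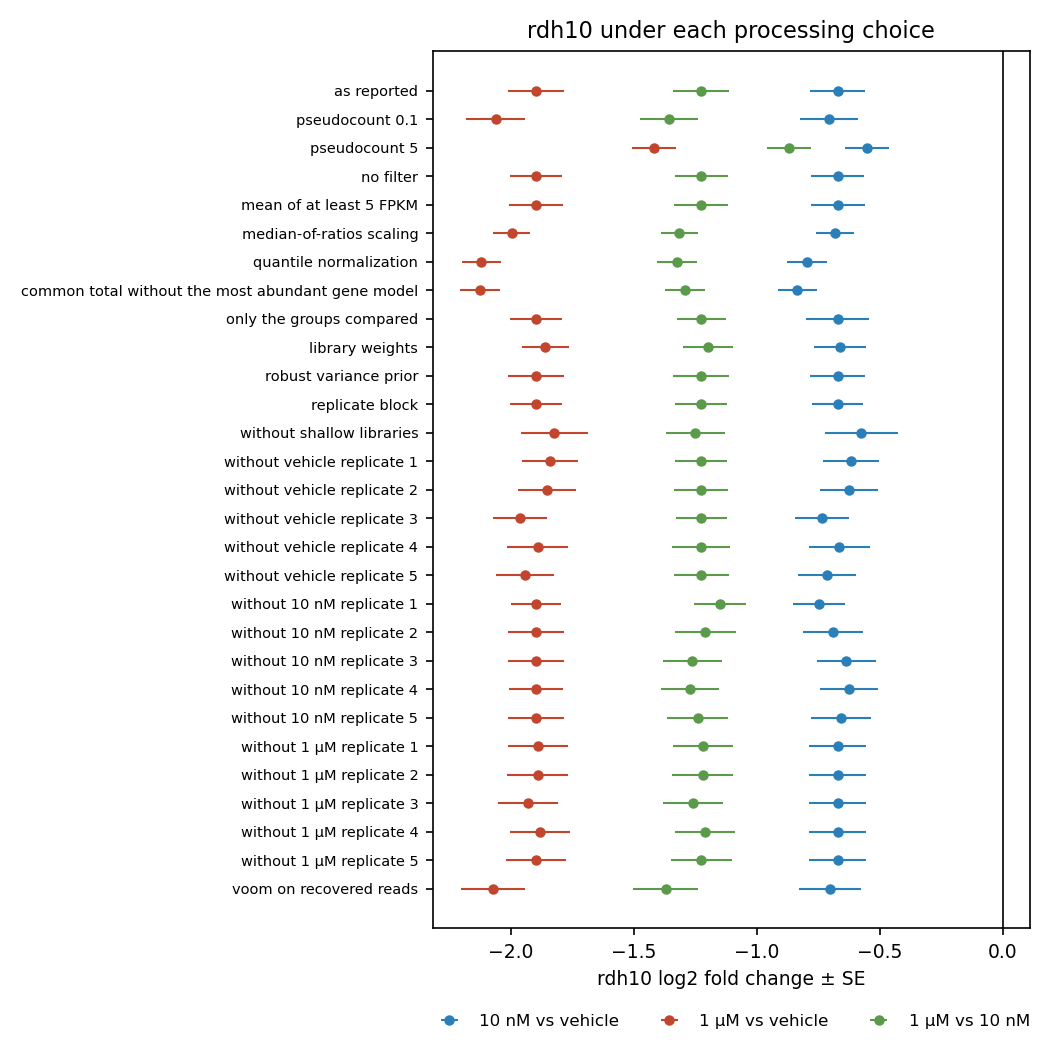
Log2 fold change of rdh10 ± SE (x axis) in each comparison, as reported and under each other processing choice (y axis). All values lie below 0. Those for 1 µM against vehicle run from -2.13 to -1.42, those for 1 µM against 10 nM from -1.37 to -0.87 and those for 10 nM against vehicle from -0.83 to -0.55.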

How the data were processed

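The authors deposited FPKM values, 1 column per library, made with TopHat, Bowtie and Cufflinks per the submitters' processing notes. The genome build, annotation and tool versions were not given in the sources used here. Per the labels' protocols, 100 ng of RNA was amplified with the NuGEN Ovation V2 system and sequenced on a SOLiD 5500xl as non-directional single reads of 50 nt.

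The 13192 gene models averaging 1 FPKM or more were fitted on the log2(FPKM + 1) scale with limma 3.58.1 in R 4.3.3, all 15 libraries in 1 fit with a mean-variance trend. Tests were two-sided, with Benjamini-Hochberg adjustment over all tested gene models and a threshold of 0.05. Single values were tested by exact permutation in scipy 1.17.1. Ranges of levels and SDs are over 5 libraries. The fit was also run on simulated data with independent normal noise in each gene model and no difference in scaling between libraries. That run cannot speak to the choice of scale.

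FPKM keeps whole reads as steps. Of the 34147 gene models with at least 2 values above 0, 99.1% came out whole to within 0.03 reads, as did 98.1% of those tested, which gave depth and reads. Where few values are above 0, matching whole numbers can be found for almost any values. The 99.1% therefore says little about such gene models. No pair of libraries within a group held identical values (0 of 30), and chi-square per degree of freedom was 5.68 to 20.0.

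The gene, the lists and the tests were chosen with earlier results of these data known. The genes named besides rdh10 are the listed ones found in the table, the 5 named and 2 unnamed gene models closest to it, and the 3 closest to its mirror image. Other settings tried were pseudocounts of 0.1 and 5, no filter, a mean of at least 5 FPKM, 3 scalings, a block for the replicate number, library weights, separate fits of each pair of groups, a robust prior on the variance, voom on recovered reads, and leaving out each library or the shallow ones.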

Additional observations from a re-analysis of the deposited data

Results flagged for a closer look

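A library was counted as far from the other 4 when its gap to the nearest exceeded 0.71 of the group's range. None of the 3 groups of rdh10 values held such a library. At 1 µM, replicate 3 came close to the limit, at 5.94 FPKM, with the next highest at 5.34 and the lowest at 5.08. Of the 66 groups of 5 libraries examined for rdh10 and the other tested genes named above, 3 held such a library, where chance gives about 1 in 20. The azin2 level of 10 nM replicate 3 was 37.4 FPKM, and the next highest library of that group had 24.5 FPKM. The hsdl2 level of 10 nM replicate 2 was 8.85 FPKM, and the next highest had 5.53 FPKM. The nr2f6 level of 1 µM replicate 4 was 4.66 FPKM, and the next highest had 4.10 FPKM.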

How the results depend on the processing

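The rdh10 calls at 1 µM against vehicle and against 10 nM held in all 28 other settings, and that at 10 nM against vehicle in 27 of 28. Without the shallow libraries it was -0.57 (limma adjusted p = 0.0531), against 9.02e-06 to 0.0531 over all settings. That choice left too few libraries for the exact tests, which gave differences of -7.28 FPKM at 10 nM (exact p = 0.2) and -16.2 FPKM at 1 µM (exact p = 0.0952), each the smallest p then possible. Leaving out 1 library gave rdh10 log2 fold changes of -0.75 to -0.61 at 10 nM, -1.96 to -1.84 at 1 µM, -1.27 to -1.15 between the doses and -0.65 to -0.40 for the second step minus the first. The last passed with median-of-ratios scaling (-0.63), quantile normalization (-0.53) and the common total (-0.46). It did not pass with a pseudocount of 5 (-0.31) or 0.1 (-0.65).

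Counts of calls in the order 10 nM, 1 µM, between doses and step difference were 3074, 6009, 3136 and 1583. A mean of at least 5 FPKM, which tests fewer gene models, gave 1560, 2250, 1047 and 708. Without the shallow libraries the first was 673 and the last 417.

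Directions that turned were of values that had not passed: chrnd at 10 nM (0.043) and tgm2 at 10 nM (0.033) without the shallow libraries, and nr2f6 at 10 nM (-0.27 without them, -0.083 with the common total, -0.056 with library weights, -0.025 with voom, -0.023 to 0.13 over single libraries left out). For tram1 at 1 µM it turned to -0.11, -0.25 and -0.24 with the 3 scalings, and was -0.045 to 0.049 over single libraries. For hsd17b10 between the doses it was -0.21 to 0.018 over single libraries. The cause was not tested in any of these. The genes zcchc24, sox2 and hsd17b10 rested on few reads, 0 to 44 per library, and dnm1 on 15 to 50 per vehicle library.

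The replicate numbers share no origin in the labels. Of 15 same-numbered pairs, 1 had deviations correlated above 0.1, and 6 of 30 best matches had the same number. Each best match was picked among the 5 libraries of another group, of which 1 had the same number. With the replicate block rdh10 was -0.67, -1.90 and -1.23 (limma adjusted p = 0.00187, 2.04e-07 and 1.19e-05), and 2933, 5966 and 3051 gene models were called. It also gave an adjusted p of 0.0594 for eya1 and 0.0501 for sox2 at 1 µM, which then did not pass, and of 0.0457 for chrng at 10 nM, which did.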
